A study of Mus musculus with 16 samples.

Results

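The switched immunoglobulin heavy chain constant genes of the mouse are Ighg3, Ighg1, Ighg2b and Ighg2c, which encode the IgG subclasses, Ighe, which encodes the IgE heavy chain, and Igha, which encodes the IgA heavy chain. They were taken by symbol from both deposited count tables, and all 6 were found among the 22675 genes that the tables share. Messenger RNA had been sequenced with smart-seq2 from sorted spleen B cells of C57BL/6 mice, at about 1000 cells per library and 7 days after immunization with NP-OVA in LPS and alum. The sorted cells were B220+, CD38+ and NIP-binding, where NIP is a hapten close to the immunizing hapten NP, and they were negative for CD138, GL7, FAS and surface IgD. All mice carried AID-Cre, B1-8hi and GFP. B1-8hi is a rearranged heavy chain variable region with high affinity for NP, and Cre is a DNA recombinase.

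There were 4 groups of 4 libraries. HetTN and HetTP were tdTomato-negative and tdTomato-positive cells of the genotype Zfp318ZSDAT/+. KOTN and KOTP were the same populations of the genotype Zfp318ZSDAT/ZSDAT. Zfp318 is a zinc finger protein that lets transcription read through from the Ighm to the Ighd exons, and tdTomato is the red fluorescent reporter on which the cells were divided. Whether each library is a different animal is not given, and p-values thus cover only library-to-library spread, which may be technical. Nor do the labels say which constant genes lie on the same chromosome as B1-8hi, and fewer cells of an isotype cannot be told apart from less RNA per cell in such bulk libraries.

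In class switch recombination, DNA breaks form in the switch regions ahead of Ighm and ahead of a downstream constant gene, and joining these breaks deletes the genes between them. The choice of the target gene follows germline transcription through it, which LPS promotes for Ighg3 and Ighg2b, interferon gamma and the transcription factor T-bet for Ighg2c, interleukin 4 for Ighg1 and Ighe, and TGF-beta for Ighg2b and Igha. Ighg2c takes the place of Ighg2a in the C57BL/6 strain. Counts over coding exons do not separate germline transcripts from transcripts of switched cells, nor membrane from secreted forms.

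The members lie on the minus strand of chromosome 12 (GRCm38) and are read in the order Ighm, Ighd, Ighg3, Ighg1, Ighg2b, Ighg2c, Ighe, Igha. Ighg3 spans chr12:113356224-113361232, Ighg1 chr12:113325240-113330523, Ighg2b chr12:113302965-113307933 and Ighg2c chr12:113285325-113288932. Ighe spans chr12:113269260-113273248 and Igha chr12:113254830-113260236. The IgG genes differ most visibly in the hinge, a short exon between the first and second constant domains whose cysteines tie the heavy chains together. The hinge exons are shown because they differ among the IgG members in length and in cysteine codons. They are written 5′ to 3′ on the coding strand from GENCODE M21 transcripts, and capitals mark in-frame cysteine codons.
Ighg3, exon 2, chr12:113360529-113360576: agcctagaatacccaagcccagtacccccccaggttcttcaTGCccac
Ighg1, exon 2, chr12:113329844-113329882: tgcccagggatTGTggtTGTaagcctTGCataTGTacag
Ighg2b, exon 2, chr12:113307261-113307326: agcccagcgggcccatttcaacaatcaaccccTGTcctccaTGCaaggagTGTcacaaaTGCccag
Ighg2c, exon 2, chr12:113288263-113288325: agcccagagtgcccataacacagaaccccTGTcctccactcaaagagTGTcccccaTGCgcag
The Ighg3 hinge exon holds 1 cysteine codon in 48 bases and that of Ighg1 holds 4 in 39 bases. The Ighg2b hinge exon holds 4 in 66 bases and that of Ighg2c holds 3 in 63 bases.

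Sequence shared between members bears on how reads could be divided among them. The spliced coding sequences of Ighg2b and Ighg2c were 85.6% identical, against 73.9% to 75.5% for the other pairs of IgG genes and at most 49.8% for pairs with Ighe or Igha. The longest run that Ighg2b and Ighg2c share was 78 bases in exon 3, printed here in capitals with 15 bases on each side to show the stretch in which a read cannot be placed.
Ighg2b, exon 3, chr12:113306854-113306961: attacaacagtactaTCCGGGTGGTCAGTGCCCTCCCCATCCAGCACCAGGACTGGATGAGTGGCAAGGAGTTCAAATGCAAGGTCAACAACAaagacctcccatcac
Ighg2c, exon 3, chr12:113287854-113287961: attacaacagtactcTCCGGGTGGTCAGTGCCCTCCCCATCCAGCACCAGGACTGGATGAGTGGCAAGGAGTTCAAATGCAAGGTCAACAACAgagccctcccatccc
Of all windows of 50 bases in the coding exons, 9.07% in Ighg2b, 5.75% in Ighg2c, 3.39% in Ighg3 and 0.883% in Ighg1 also occurred in another gene of the annotation. For Igha and Ighe the count was 0. The authors' treatment of multiply mapping reads is not given in the sources used here, so Ighg2b and Ighg2c values are uncertain by the reads from such stretches.

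Total counts ranged from 7748787 to 15742445 per library. Zfp318, the gene of the targeted allele, was at 78.8 to 152 counts-per-million of the library total (CPM) across the 8 heterozygous libraries and at 0.446 to 5.42 CPM across the 8 homozygous ones, in the direction of the labels. Each genotype was deposited as its own table, so genotype and table cannot be told apart. The common biological coefficient of variation was 0.98 among the heterozygous and 0.211 among the homozygous libraries. The 8 B cell markers summed to between 10678 and 16779 CPM in every library. The 8 T cell markers summed to between 143 and 594 CPM in heterozygous and between 0.258 and 1.73 CPM in homozygous libraries, with Cd4 at 0 in every group. The 12 myeloid markers summed to between 135 and 1298 CPM and to between 49.5 and 99.8 CPM, respectively. The 8 germinal center markers summed to between 673 and 1199 CPM and to between 246 and 539 CPM. Their part in the differences between genotypes below was not tested.

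How the members were expressed in each group was examined first. Ighg2b was the member with the highest CPM in the homozygous groups and was even there. Ighg2b stood at 1148, 1394, 1623 and 1417 CPM in KOTN and at 1573, 1428, 1551 and 1352 CPM in KOTP. The ranges of the homozygous groups overlapped, and the highest library was 1.41 times the lowest in KOTN and 1.16 times in KOTP. In the heterozygous groups Ighg2b was at 488, 183, 376 and 219 CPM in HetTN and at 358, 137, 494 and 282 CPM in HetTP. Each of these 8 libraries lay below each of the 8 homozygous ones.

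Ighg1 stood at 326, 414, 466 and 467 CPM in KOTN and at 574, 494, 520.2 and 463 CPM in KOTP. It was at 125, 165, 52.1 and 206 CPM in HetTN and at 333, 4.98, 29.2 and 60.5 CPM in HetTP. HetTP replicate 1 was thus level with the lowest KOTN library, and the other 3 HetTP libraries held less than any KOTN or KOTP library.

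Ighg2c had the largest coefficient of variation of any member in any group, in HetTN. It stood at 516, 565, 783 and 614 CPM in KOTN and at 379, 361, 390.2 and 331 CPM in KOTP. In HetTN it was at 16.3, 25.6, 4698 and 41.2 CPM, and in HetTP at 112, 93.1, 41.6 and 291 CPM. HetTN replicate 3 held 288 times the Ighg2c of the lowest HetTN library and more than any homozygous library, while the other 3 HetTN libraries held the lowest levels of the series. The HetTN mean of 1195 ± 2335 CPM (SD, n = 4) therefore describes none of its libraries.

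Ighg3, an early target of switching in responses to LPS, overlapped between any pair of groups. It was at 189, 239.6, 236 and 470.0 CPM in KOTN, at 236, 224, 274 and 212 CPM in KOTP, and at 173, 162, 172 and 329 CPM in HetTN. In HetTP it was at 220.5, 88.3, 110.1 and 47.1 CPM. KOTN replicate 4 and HetTN replicate 4 each stood above the other 3 libraries of their group.

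Ighe and Igha were low. Ighe was at 5.55, 15.7, 16.8 and 19.9 CPM in KOTN and at 20.5, 17.8, 14.4 and 12.6 CPM in KOTP. In HetTP it was at 142 CPM in replicate 1, from 1516 counts, against 8.44, 0 and 8.89 CPM in the others. In HetTN it was at 0, 1.37, 6.09 and 0 CPM, and a count of 0 allows up to 0.370 and 0.261 CPM in those libraries, for counting error only. In HetTP replicate 3 the count of 0 allows up to 0.191 CPM. Igha was at 7.49, 9.80, 5.15 and 15.1 CPM in KOTN and at 10.9, 25.7, 18.6 and 8.73 CPM in KOTP. It was at 9.06, 2.65, 5.27 and 23.8 CPM in HetTP and at 0, 25.5, 2.2 and 77.3 CPM in HetTN. HetTN replicate 1, in which both Ighe and Igha were at 0, held 6509 counts of the other members, so that neither could have made up more than 0.059% of its switched counts (upper bound of the 95% Wilson interval).

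**Figure D1:**
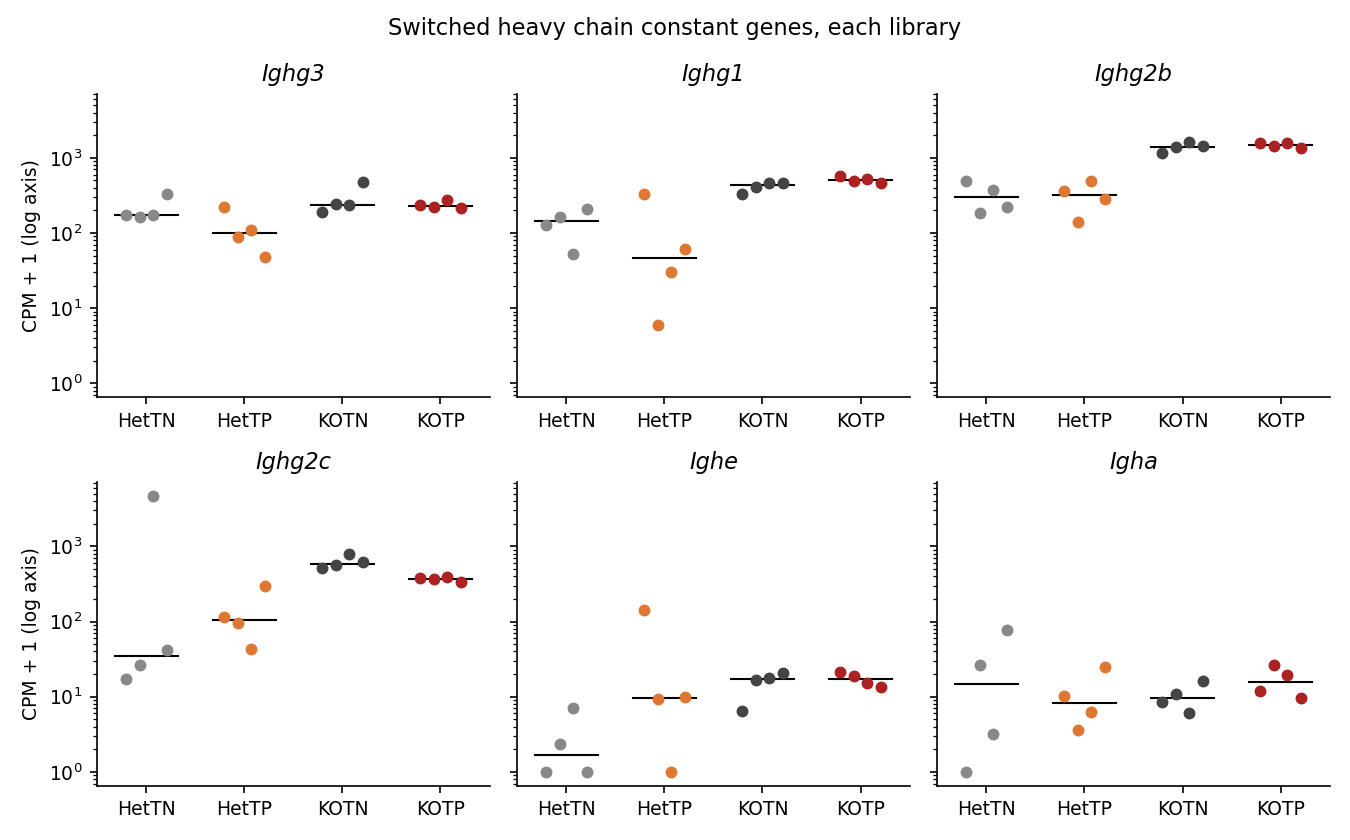
CPM + 1 of each member (log axis) in every library, by group; points are libraries in replicate order and lines are group medians. Ighg2b is higher in all 8 homozygous than in all 8 heterozygous libraries, and 1 HetTN library stands at 4698 CPM of Ighg2c.

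Per kilobase of coding sequence, which allows levels of different genes to be compared, the homozygous groups gave a clear order. In KOTN, Ighg2b was at 1145 ± 159 CPM per kilobase (SD, n = 4), followed by Ighg2c at 509.6 ± 95.4, Ighg1 at 353 ± 55.8 and Ighg3 at 236 ± 105, with Ighe at 9.78 ± 4.19 and Igha at 7.66 ± 3.46. Ighg1 and Ighg3 overlapped, as did Ighe and Igha, and the other neighbours in this order did not. In KOTP, Ighg2b was at 1211 ± 85.7 CPM per kilobase, followed by Ighg1 at 434 ± 39.9, Ighg2c at 300.5 ± 21.1 and Ighg3 at 197 ± 22.2, with Igha at 13 ± 6.31 and Ighe at 11 ± 2.37. Only Igha and Ighe overlapped there, so Ighg1 and Ighg2c had changed places between the groups. In HetTN and in HetTP all 5 pairs of neighbours overlapped, and no order of the members held beyond the spread of the libraries.

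The members' weight in the whole heavy chain pool was then compared with that of Ighm and Ighd, the constant genes of unswitched B cells. In KOTN the 6 members made up 43.5%, 47.9%, 53.8% and 53.2% of all heavy chain constant counts, and in KOTP 52.3%, 50.8%, 49.5% and 48.7%. In HetTP they made up 7.33%, 3.60%, 6.98% and 7.01%, and in HetTN 3.43%, 3.84%, 34.2% and 7.17%. All 8 homozygous libraries lay above all 8 heterozygous ones, and HetTN replicate 3 was the heterozygous library nearest to them. Wilson intervals at 95% were narrow (34.1% to 34.4% for that library), and libraries of 1 group differed by more than their intervals.

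The denominators moved too, although all groups had been sorted as negative for surface IgD. Ighm was at 8158 to 21506 CPM in heterozygous and at 2447 to 2850.3 CPM in homozygous libraries, and Ighd at 808 to 1169.8 CPM and at 15 to 41.6 CPM. Summed over the 6 members, switched counts reached 2192 to 3129 CPM in the homozygous libraries. They reached 335 to 1175 CPM in 7 of the heterozygous libraries and 5306 CPM in HetTN replicate 3.

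**Figure D2:**
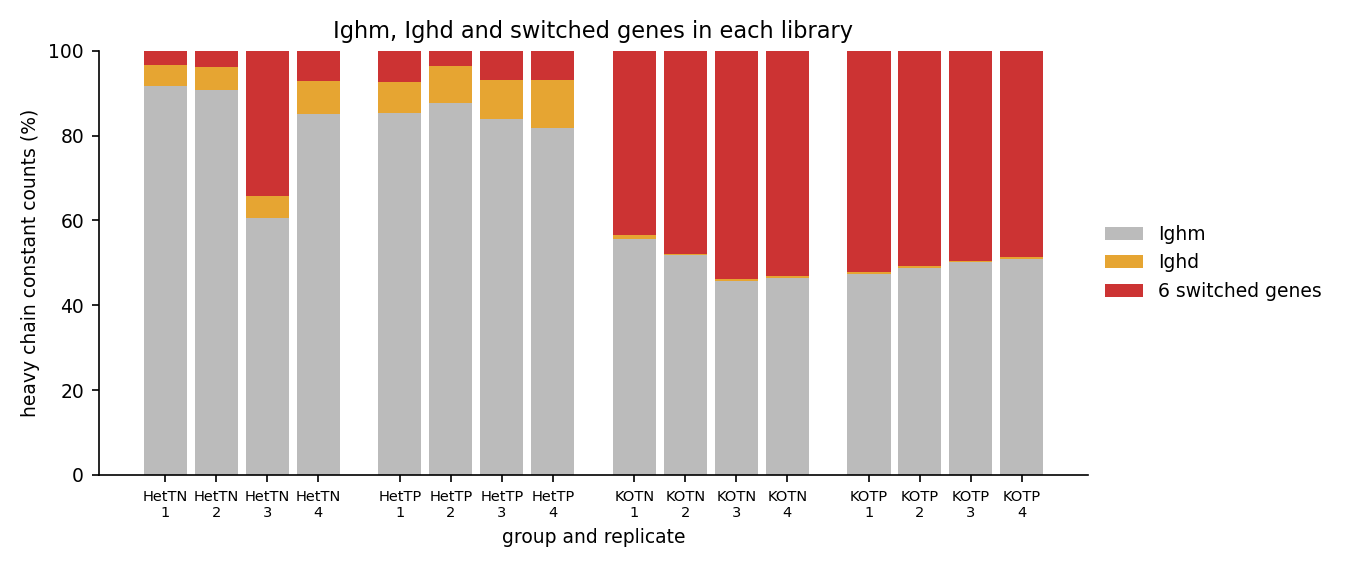
Percent of heavy chain constant counts from Ighm, Ighd and the 6 switched genes in each library (stacked bars, replicates 1 to 4 in each group). The switched genes take 43.5% to 53.8% of the bar in homozygous libraries and 3.43% to 34.2% in heterozygous ones.

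Whether reporter-positive and reporter-negative cells of homozygous mice differed was examined next. KOTP had less Ighg2c than KOTN, 365 ± 25.7 against 619.6 ± 116 CPM (SD, n = 4 each), and all 4 KOTP libraries lay below all 4 KOTN libraries. Over all genes, 7.03% had groups that did not overlap in CPM in this comparison, 4.51% with KOTP lower. Ighg1 was at 513 ± 47.2 against 418 ± 66, with overlap in 1 KOTP library, and Ighg2b at 1476 ± 104 against 1396 ± 194. In the fit of all 16 libraries (edgeR, Benjamini-Hochberg adjusted over 10687 genes), which shares 1 estimate of the spread between genotypes, 0 of 6 members passed the threshold of 0.05. That fit called 0.0187% of all genes, and 167 genes had an unadjusted p under 0.05, 0 of the 6 members among them. Limma voom called 0 members on the same libraries, and DESeq2 called 0 of the 4 for which it gave an adjusted p, with no value for Ighg1 and Ighg2c.

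In that fit the log2 difference of Ighg2c was -0.74 with a standard error (SE) of 1.36 (adjusted p = 1). Fitted to the 8 homozygous libraries alone, the difference was -0.73 with an SE of 0.09 (edgeR adjusted p = 5.6e-05), a fold of 0.603, and Ighg2c fell. It passed in each of the 8 fits of homozygous libraries that left out 1 library, between -0.80 and -0.60, with adjusted p at most 0.00208. In the same fit Ighg1 rose by 0.33 on the log2 scale (SE 0.09, adjusted p = 0.0446), but it passed in only 2 of the 8 fits with 1 library left out, where the adjusted p ranged from 0.0332 to 0.17. The other 4 did not pass. Igha had a log2 difference of 0.79 (SE 0.34, adjusted p = 0.331), Ighg2b of 0.11 (SE 0.08, adjusted p = 0.647), Ighg3 of -0.22 (SE 0.28, adjusted p = 0.864) and Ighe of 0.20 (SE 0.27, adjusted p = 0.868). This fit called 2.37% of 9974 genes, 0.892% higher and 1.47% lower. DESeq2 and voom on these libraries called the same pair, and a fit with a block for the replicate number called Ighg2c only. Over 9974 genes, DESeq2 called 357, voom 353 and the block fit 225. The SE of Ighg2c was 1.36 with the heterozygous libraries in the fit, where it ranged from 16.3 to 4698 CPM, and 0.09 without them.

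Isotype shares do not depend on the scaling of a library, so each member's share of the summed switched counts was compared too. Ighg2c made up 23.6%, 21.4%, 25% and 20.4% in KOTN and 13.6%, 14.2%, 14.1% and 13.9% in KOTP. All KOTP libraries lay below all KOTN libraries, with a mean difference of -8.67 percentage points (13.9% ± 0.276 in KOTP, 22.6% ± 2.07 in KOTN, SD, n = 4). Ighg1 made up 14.9%, 15.7%, 14.9% and 15.5% in KOTN and 20.6%, 19.4%, 18.8% and 19.5% in KOTP, a gain of 4.30 points without overlap. Ighg2b made up 52.4%, 52.8%, 51.9% and 47.2% in KOTN and 56.3%, 56%, 56% and 56.8% in KOTP, a gain of 5.21 points without overlap.

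For each of these 3 shares the two-sided exact permutation test gave p = 0.0286, the smallest that 4 against 4 libraries allow. Adjusted over the 24 share tests made, p was 0.171, so none passed. With that smallest p and 24 tests, a few separated shares could not pass, so the adjusted p does not decide on them. Ighg3 (10.2% ± 3.68 in KOTN, 9.01% ± 0.618 in KOTP), Ighe (0.511% ± 0.18, 0.62% ± 0.111) and Igha (0.345% ± 0.139, 0.609% ± 0.299) overlapped, with exact permutation p between 0.171 and 0.829 before adjustment. Shares sum to 100%, so a lower share of Ighg2c raises the others by construction. When Ighg2b, the largest, was left out of the sum, the differences were -14.5 points for Ighg2c and 13.5 points for Ighg1, both without overlap. When Ighg2b and Ighg2c were counted as 1 gene, since they share sequence, their joint share overlapped between the groups and that of Ighg1 did not.

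The ratio of Ighg1 to Ighg2c counts was 0.632, 0.733, 0.595 and 0.760 in KOTN and 1.52, 1.37, 1.33 and 1.4 in KOTP. Ighg2c was thus the more abundant of this pair in every KOTN library and Ighg1 in every KOTP library. The ratio of Ighg2b to Ighg2c was 2.22, 2.47, 2.07 and 2.31 in KOTN and 4.15, 3.95, 3.97 and 4.08 in KOTP. Germinal center markers differed between the same groups, with sums of 408 to 539 CPM in KOTN and 246 to 329.8 CPM in KOTP. In the fit of the homozygous libraries 4 of their 8 genes were lower, where 1.47% of all genes were. The fit of all 16 libraries called 0 of the 8. Plasma cell markers summed to between 1506 and 1706 CPM and between 1443 and 1557 CPM, and T cell markers to at most 1.73 CPM in either. The part of these markers in the isotype differences was not tested.

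**Figure D3:**
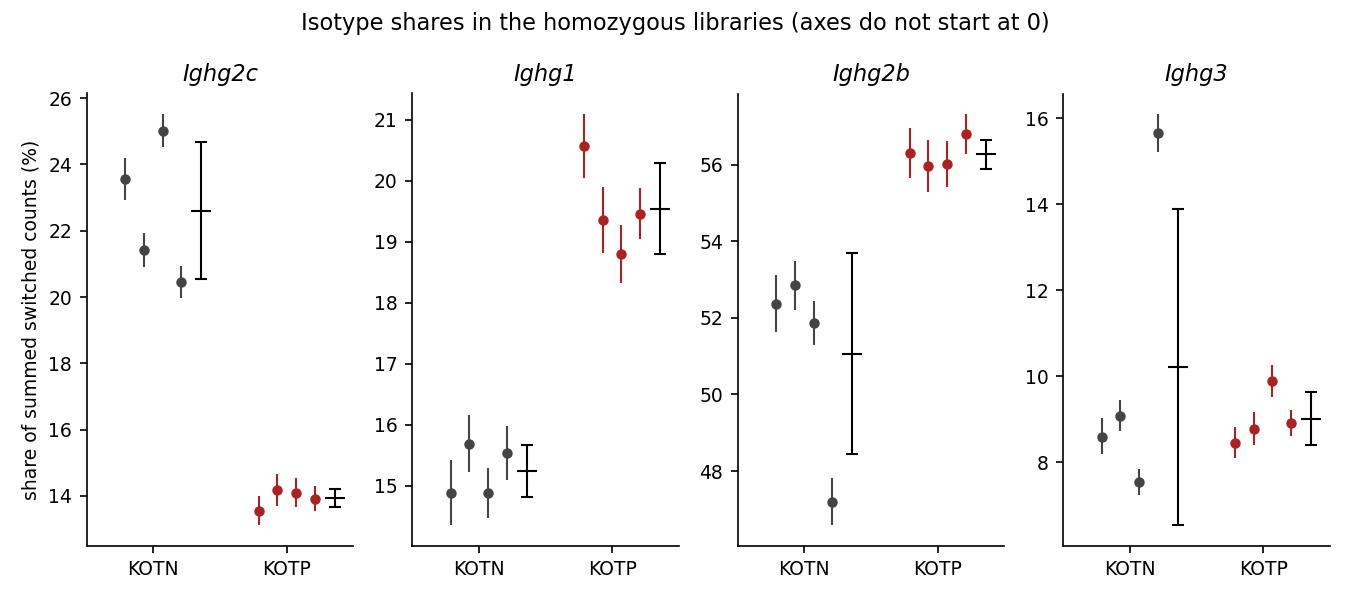
Share of the summed switched counts (%) of the 4 IgG genes in the homozygous libraries; points are libraries with 95% Wilson intervals, black marks the mean ± SD of 4 libraries, and the axes do not start at 0. Ighg2c lies lower in all KOTP libraries, Ighg1 and Ighg2b lie higher, and Ighg3 overlaps.

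The same question was put to heterozygous mice. HetTP and HetTN overlapped in CPM for all 6 members, while 4.70% of all genes did not overlap in this comparison. The fit of all 16 libraries called 0 of 6 members against 1.07% of all genes, and 1731 genes had an unadjusted p under 0.05, among them Ighe, Ighg3 and Ighg2c. Ighg3 had a log2 difference of -0.98 (SE 0.36, adjusted p = 0.167). Ighe had one of 4.19 (SE 1.47, adjusted p = 0.147), with HetTP replicate 1 far above the other HetTP libraries. Ighg2c had one of -3.30 (SE 1.48, adjusted p = 0.289). Igha (-1.55), Ighg1 (-0.51) and Ighg2b (-0.09) had adjusted p of 0.54 or more. Voom called 0 members, and DESeq2 called 0 of the 4 with a value, again without Ighg1 and Ighg2c.

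Single libraries decided these values, and p-values of the fit of all libraries are too small here, since the heterozygous libraries spread more than the common estimate. In the fit of all libraries, the difference of Ighg2c became 2.13 and passed without HetTN replicate 3 (edgeR adjusted p = 0.0383). That of Ighg3 became -1.48 and passed without HetTP replicate 1 (adjusted p = 0.0458), while that of Ighe went to 1.44 and did not pass. Neither passed in any of the 8 fits of heterozygous libraries alone that left out 1 library, where the adjusted p was 0.787 or more for Ighg2c and 0.579 or more for Ighg3. The fit of the 8 heterozygous libraries alone called 0.0% of 9703 genes. Of the members, Ighg3 had an unadjusted p under 0.05 there (0.0335), and voom on these libraries called 0 members. The number of all genes under that p is not given for this fit. DESeq2 called 0 of the 5 with a value, without Ighg2c.

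Isotype shares in heterozygous libraries differed from library to library. In HetTN the member with the largest share was Ighg2b in replicate 1 (60.8%) and replicate 2 (32.6%), Ighg2c in replicate 3 (88.5%) and Ighg3 in replicate 4 (37.7%). In HetTP it was Ighg2b in replicates 1, 2 and 3 (30.5%, 41% and 72.6%) and Ighg2c in replicate 4 (40.8%). In all 8 homozygous libraries it was Ighg2b, at 47.2% to 56.8%. Between HetTP and HetTN 0 of 6 shares separated the groups. The largest difference was in Ighg2b, 45.9% ± 18.4 against 31.4% ± 22.3 (exact permutation p = 0.343, adjusted 0.588). Ighe made up 12%, 2.52%, 0% and 1.24% in HetTP and 0%, 0.244%, 0.115% and 0% in HetTN (exact permutation p = 0.143, adjusted 0.381).

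Markers of antibody-secreting cells were looked at beside the single high Ighg2c library. The 10 plasma cell markers summed to 2695 CPM in HetTN replicate 3, the highest of all libraries, against 1315 to 2309 CPM in the other 15. Jchain, which links IgM and IgA into polymers and marks secreting cells, was at 404, 203, 632 and 175 CPM in HetTN, highest in the same replicate. Sdc1, the gene of CD138, was at 0 there, and Tnfrsf17 was at 0 in all HetTN libraries. Their part in the Ighg2c level of that library was not tested.

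**Figure D4:**
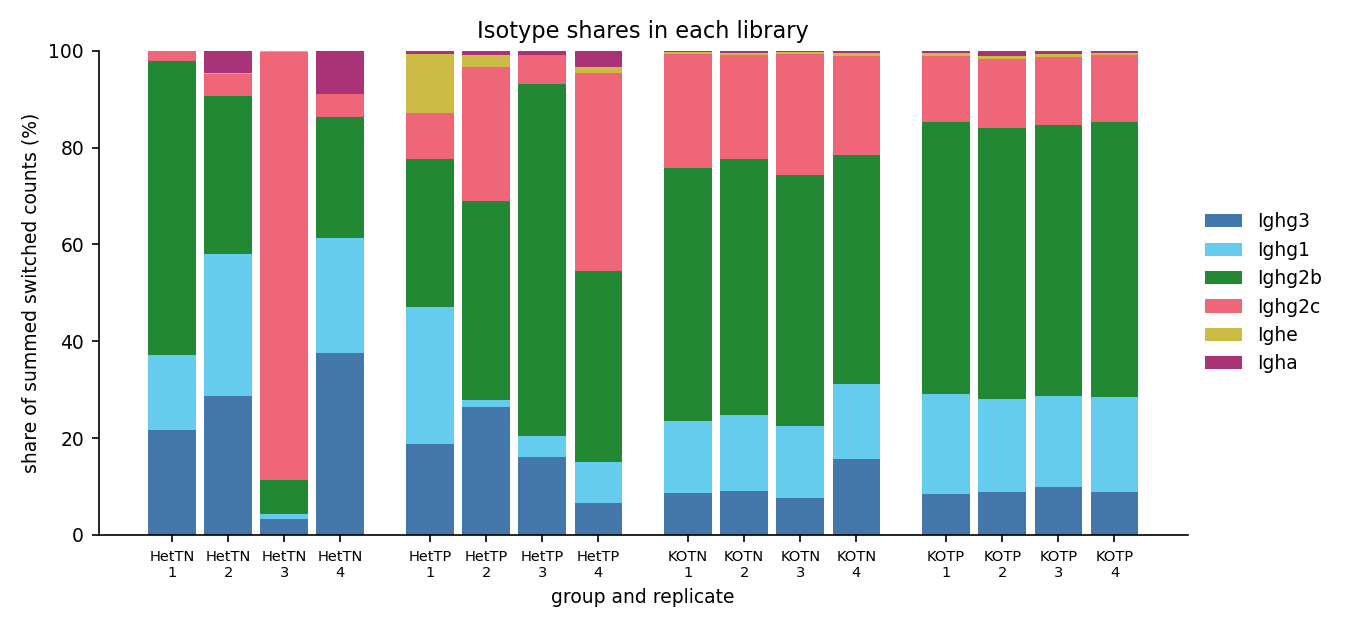
Share of the summed switched counts (%) of each member in every library (stacked bars, replicates 1 to 4 in each group). The homozygous bars resemble each other within a group, while Ighg2c takes 88.5% of HetTN replicate 3 and Ighg2b 72.6% of HetTP replicate 3.

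Homozygous and heterozygous cells were then compared within each sorted population. The comparisons share no library with each other, but each shares libraries with the reporter comparisons above. Both set the same deposited tables against each other, so a difference between the tables would enter both. In the fit of all 16 libraries they also share 1 estimate of the spread. Ighg2b rose in both. In tdTomato-negative cells it was 4.75-fold higher in KOTN (1396 ± 194 against 317 ± 142 CPM, SD, n = 4), a log2 difference of 2.25 (SE 0.31, edgeR adjusted p = 1.2e-04). In tdTomato-positive cells it was 5.4-fold higher in KOTP (1476 ± 104 against 318 ± 149 CPM), a log2 difference of 2.43 (SE 0.31, adjusted p = 4.3e-05). It passed in all 16 fits that left out 1 library, for both comparisons.

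In KOTN against HetTN, Ighg2b was the 1 of 6 members that passed, where 10.5% of all genes did, 5.61% higher and 4.88% lower. For Ighg1 and Ighg2b all KOTN libraries lay above all HetTN libraries. The groups did not overlap for 18.9% of all genes, 10.4% with KOTN higher. Ighg1 had a log2 difference of 1.68 (SE 0.83, adjusted p = 0.246), and it passed in the fit of the 8 compared libraries alone (1.67, SE 0.35, adjusted p = 0.0213), which called 7.30% of genes, 3.25% higher. With 1 of these 8 libraries left out it passed in 5 of 8 fits, with adjusted p up to 0.0752. Ighg2c had one of -0.89 (SE 1.37, adjusted p = 0.782), and without HetTN replicate 3 it was 4.55 higher in KOTN and passed (adjusted p = 5.1e-05). The T cell, myeloid and germinal center marker sums given above differ between the same libraries, and their part was not tested. Ighg3 had a log2 difference of 0.51 (SE 0.36, adjusted p = 0.456), Ighe of 2.96 (SE 1.40, adjusted p = 0.208) and Igha of -1.46 (SE 1.08, adjusted p = 0.48).

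In KOTP against HetTP, Ighg2b and Ighg3 were the 2 of 6 members that passed, where 10.3% of all genes did, 5.06% higher and 5.22% lower. Ighg3 was 2.38-fold higher in KOTP (237 ± 26.6 against 116 ± 74.1 CPM, log2 difference 1.25, SE 0.37, adjusted p = 0.0337), although HetTP replicate 1 lay within the KOTP range. It passed in 9 of the 16 fits that left out 1 library and failed without HetTP replicate 2, 3 or 4 or any of the 4 KOTP libraries, with adjusted p up to 0.1. In the fit of the 8 compared libraries alone it passed (adjusted p = 0.0494), but in only 1 of the 8 fits that left out 1 of them. For Ighg1, Ighg2b and Ighg2c all KOTP libraries lay above all HetTP libraries. The groups did not overlap for 20.8% of all genes, 7.06% with KOTP higher. Ighg1 had a log2 difference of 2.51 (SE 0.85, adjusted p = 0.0857), which became 4.24 and passed without HetTP replicate 1 (adjusted p = 2.6e-04). Ighg2c had one of 1.67 (SE 1.40, adjusted p = 0.602), and it passed in the fit of the 8 compared libraries alone (1.67, SE 0.45, adjusted p = 0.037), which called 11.7% of genes, 5.27% higher. With 1 of these 8 libraries left out it passed in 2 of 8 fits, with log2 differences from 1.39 to 2.38 and adjusted p up to 0.092. In the fit of all libraries it also passed without HetTN replicate 3, a library outside this comparison that enters the common spread (adjusted p = 0.0124). Igha (0.87, SE 1.07) and Ighe (-1.03, SE 1.30) had adjusted p of 0.762 and 0.769.

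The size of the genotype differences, and for some members the direction, depends on how libraries are scaled. The deposited per-million values of the authors rest on a divisor of mapped reads. Counts amounted to 1.35 to 1.5 per such read for heterozygous libraries and 0.369 to 0.419 for homozygous ones. With that divisor the median log2 difference of all genes was -2.18 for KOTP against HetTP and -1.88 for KOTN against HetTN. Ighg2b then differed by 0.30 and 0.35 and did not pass (adjusted p = 0.367 and 0.316), though it lay above those medians. Ighg3 turned to -0.89 and -1.34 and passed as lower (adjusted p = 0.038 and 0.0043), though it too lay above the median of all genes. Of 10552 genes, 7999 and 7337 passed with that divisor, 84 and 154 of them higher.

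Shares were free of that scaling. Between KOTN and HetTN the share of Ighe alone did not overlap, at 0.511% ± 0.180 against 0.0898% ± 0.116 (exact permutation p = 0.0286, adjusted 0.171). Between KOTP and HetTP 0 of 6 shares separated the groups. The share of Ighg2b was 51.1% ± 2.61 in KOTN and 31.4% ± 22.3 in HetTN (exact permutation p = 0.143, adjusted 0.381), and 56.3% ± 0.377 in KOTP and 45.9% ± 18.4 in HetTP (exact permutation p = 0.343, adjusted 0.588).

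Whether the reporter comparison differed between the genotypes was tested as an interaction in the fit of all 16 libraries. It called 0 of 6 members and 0.122% of all genes, and 992 genes had an unadjusted p under 0.05, with Ighe the only member among them. For Ighg2c the difference between the reporter effects was 2.56 on the log2 scale (SE 1.95, adjusted p = 0.822), and without HetTN replicate 3 it was -2.87 (adjusted p = 0.0679). For Ighe it was -4.0 (SE 1.90, adjusted p = 0.534), for Ighg3 0.75 (SE 0.51, adjusted p = 0.769) and for Igha 2.33 (SE 1.52, adjusted p = 0.733). Ighg1 (0.83) and Ighg2b (0.18) had adjusted p of 0.94 and 0.982. Voom called 0 members here, and DESeq2 0 of the 4 with a value, without Ighg1 and Ighg2c.

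**Figure D5:**
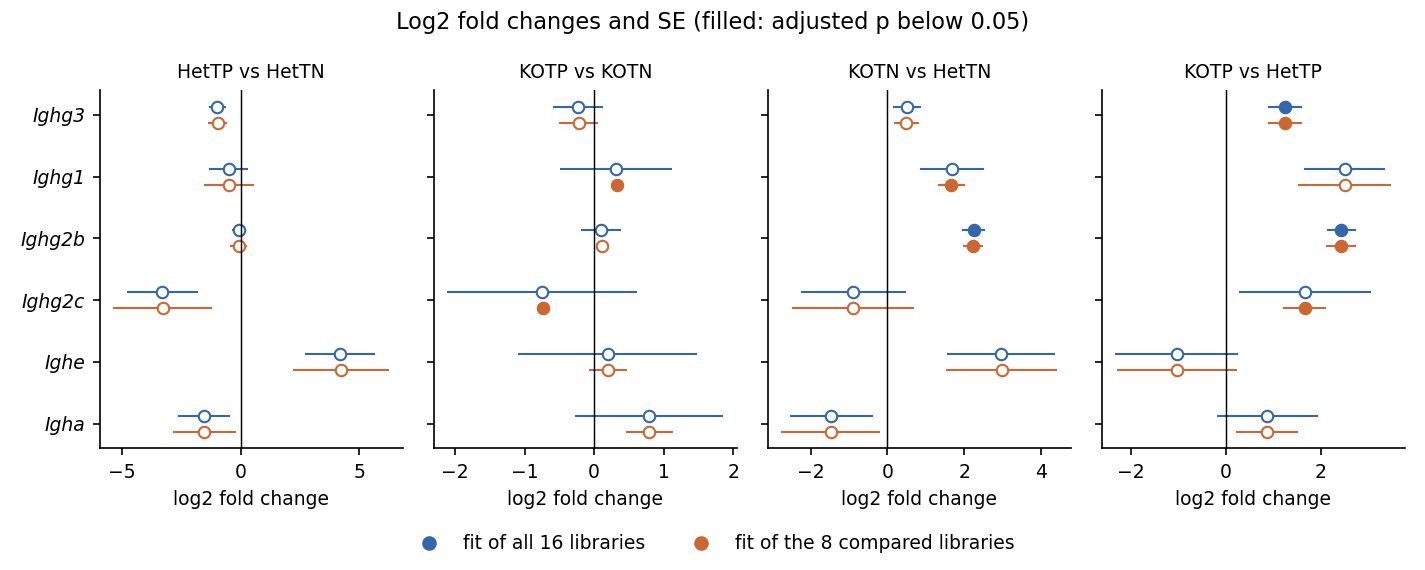
Log2 fold changes (points) and SE (bars) of the 6 members in the 4 comparisons, from the fit of all 16 libraries (blue) and of the 8 compared libraries (orange), with filled points for adjusted p below 0.05; each panel has its own axis. Ighg2b is filled in both genotype comparisons, and Ighg2c in KOTP against KOTN is filled only in the fit of the homozygous libraries.

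Genes that act in switching or with the switched receptors were described from lists of pathway genes. The transcription factors that steer the choice of isotype came first, with 34 listed and 33 tested. In the fit of the 8 homozygous libraries, 2 were higher and 3 lower in KOTP, with a list median of 0.07, where 2.37% of all genes passed, 0.892% higher and 1.47% lower. Tbx21, the gene of T-bet, was at 165, 163, 154 and 173 CPM in KOTN and at 89.1, 104, 98.8 and 85.8 CPM in KOTP. All KOTP libraries lay below all KOTN libraries, and Tbx21 fell by 0.76 on the log2 scale (SE 0.09, adjusted p = 7.3e-06). Ighg2c fell too, and the part of Tbx21 in that difference was not tested. Zbtb32, a repressor in activated B cells, fell by 1.05 (SE 0.11, adjusted p = 5.6e-07). Id2, an inhibitor of E proteins, fell by 0.84 (SE 0.11, adjusted p = 5.6e-05), and Foxo1 rose by 0.45 (SE 0.11, adjusted p = 0.0257). The fit of all 16 libraries called 0 of the 33 in this comparison, with 3 at an unadjusted p under 0.05. DESeq2 called 0 of those with a value and voom 5. Of all 10687 genes, 167 had an unadjusted p under 0.05, and voom called 341.

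In heterozygous libraries Tbx21 was low, at 10.6, 14.8, 19.6 and 3.39 CPM in HetTN and at 22.2, 12.5, 0 and 18.9 CPM in HetTP. HetTN replicate 3, with 4698 CPM of Ighg2c, held 19.6 CPM of Tbx21, less than any KOTN or KOTP library. The part of Tbx21 in that Ighg2c level was not tested either. Comparisons with heterozygous cells in this and the following lists, with the values of single genes, come from the fit of all 16 libraries unless another is named. Against HetTN, 5 of the 33 transcription factors were higher and 8 lower in KOTN (list median -0.09, all genes 0.00), where 5.61% of all genes were higher and 4.88% lower. The edgeR fit of the compared libraries alone gave 3 higher and 7 lower, where 7.30% of all genes passed. Id2 rose by 2.49 (SE 0.35, adjusted p = 1.5e-04), whereas Bcl6, a germinal center repressor, fell by 1.91 (SE 0.21, adjusted p = 1.9e-05). Against HetTP, 2 were higher and 7 lower in KOTP (list median -0.41, all genes -0.03), where 5.06% of all genes were higher and 5.22% lower. The compared libraries alone gave 1 higher and 7 lower, where 11.7% of all genes passed. Bcl6 fell by 1.77 (SE 0.21, adjusted p = 2.9e-05) and Tcf3, an E protein, fell by 1.84 (SE 0.34, adjusted p = 0.00149), whereas Batf, a factor needed for switching, rose by 1.31 (SE 0.31, adjusted p = 0.00974).

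The 34 genes of switch recombination make, signal and join the DNA breaks of switching, and all were tested. In the fit of the 8 homozygous libraries 3 passed, all lower in KOTP, with a list median of -0.02, where 1.47% of all genes were lower. The fit of all 16 libraries called 0 of the 34, with 3 at an unadjusted p under 0.05. DESeq2 called 0 of those with a value and voom 4, where voom called 341 of 10687 genes. Hmces, which binds abasic sites, fell by 0.63 (SE 0.13, adjusted p = 0.00583). H2afx, the histone that is phosphorylated around breaks, fell by 0.60 (SE 0.12, adjusted p = 0.00658), and Exo1, an exonuclease of mismatch repair, fell by 1.60 (SE 0.37, adjusted p = 0.0147). Against heterozygous cells, 1 was higher and 7 lower in KOTP (list median -0.45) and 5 passed in KOTN, all lower (list median -0.18), where 10.3% and 10.5% of all genes passed, 5.22% and 4.88% lower. The compared libraries alone gave 0 higher and 6 lower in KOTP, and the same counts in KOTN. There 11.7% and 7.30% of all genes passed. Hmces fell by 2.55 in KOTP (SE 0.20, adjusted p = 2.5e-07) and fell by 1.83 in KOTN (SE 0.20, adjusted p = 1.1e-05).

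Of the 17 receptors and adaptors that carry isotype-directing signals, all tested, 0 passed between KOTP and KOTN in either edgeR fit. At an unadjusted p under 0.05 there were 0 over all 16 libraries and 2 over the homozygous ones, and voom called 0, as did DESeq2 of those with a value. How many of all genes were under that p in the homozygous libraries is not given, so the 2 cannot be set against it. Against heterozygous cells, 4 were higher and 1 lower in KOTP (list median 0.33) and 5 higher and 2 lower in KOTN (list median 0.24), beside the same shares of all genes (10.3% and 10.5%). The compared libraries alone gave 4 higher and 1 lower in KOTP, but 2 higher and 0 lower in KOTN. There 11.7% and 7.30% of all genes passed. Il2rg rose by 0.58 in KOTP (SE 0.12, adjusted p = 0.00454), and Ifngr1, a chain of the interferon gamma receptor, by 0.71 (SE 0.19, adjusted p = 0.0224). Tlr9 rose by 4.69 in KOTN (SE 1.00, adjusted p = 0.00574), from 1.94 ± 1.87 to 49.0 ± 6.17 CPM. Tnfrsf13c rose by 0.72 in KOTN (SE 0.17, adjusted p = 0.0115) and Il21r fell by 1.02 (SE 0.28, adjusted p = 0.0248). Neither of these passed in the edgeR fit of the compared libraries alone. Tnfrsf13b, the receptor TACI, rose by 0.70 in KOTP (SE 0.17, adjusted p = 0.00971) and by 1.44 in KOTN (SE 0.17, adjusted p = 2.7e-05). Il5ra, the interleukin 5 receptor chain, fell by 3.13 in KOTP (SE 0.67, adjusted p = 0.00467).

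Receptors that bind antibody were the last to be compared, with 11 listed and 9 tested over all libraries. In the 8 homozygous libraries 8 were tested, of which 3 were higher and 1 lower in KOTP, where 2.37% of all genes passed. Fcmr, the IgM receptor, rose by 0.68 (SE 0.06, adjusted p = 1.3e-07), Fcer2a, the low-affinity IgE receptor CD23, by 0.66 (SE 0.10, adjusted p = 9.7e-04) and Fcgrt, the neonatal Fc receptor, by 0.70 (SE 0.12, adjusted p = 0.00139). Fcgr2b, the inhibitory IgG receptor, fell by 0.51 (SE 0.08, adjusted p = 1.8e-04). The fit of all 16 libraries called Fcmr only (0.67, SE 0.10, adjusted p = 0.0447). Against heterozygous cells 2 were higher and 2 lower in KOTP, and 1 was higher and 3 lower in KOTN. Of all genes 10.3% and 10.5% passed in these comparisons, 5.06% and 5.61% higher and 5.22% and 4.88% lower. The compared libraries alone gave 2 higher and 2 lower in KOTP, and 1 higher and 2 lower in KOTN. There 11.7% and 7.30% of all genes passed. Fcgrt rose by 2.13 in KOTP (SE 0.28, adjusted p = 7.9e-05), and Fcamr fell by 2.31 in KOTN (SE 0.62, adjusted p = 0.0235). Fcgr2b rose by 1.40 in KOTP (SE 0.27, adjusted p = 0.00189) and by 1.70 in KOTN (SE 0.27, adjusted p = 5.5e-04). Fcmr fell by 0.42 in KOTP (SE 0.10, adjusted p = 0.0128) and fell by 1.27 in KOTN (SE 0.10, adjusted p = 6.3e-07). Fcer1g, the signalling chain shared by activating Fc receptors of myeloid cells, fell by 3.76 in KOTP (SE 0.75, adjusted p = 0.00264) and fell by 3.94 in KOTN (SE 0.75, adjusted p = 0.0023), beside the lower myeloid marker sums given above, whose part was not tested.

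Among the 9 partners of the heavy chain in the receptor, Jchain fell in KOTP against KOTN in the fit of all 16 libraries, from 48.2 ± 34.8 to 5.9 ± 0.988 CPM (log2 difference -3.0, SE 0.49, adjusted p = 0.0472). It was the 1 of 9 that passed, where 0.0187% of all genes did. Over the homozygous libraries alone it did not pass (adjusted p = 0.0644). Compared with heterozygous cells, 3 of the 9 were higher and 4 lower in KOTP, and 2 higher and 4 lower in KOTN. Of all genes 10.3% and 10.5% passed there. The compared libraries alone gave 4 higher and 4 lower in KOTP, and 1 higher and 4 lower in KOTN, beside 11.7% and 7.30%. Iglc1, the lambda 1 light chain that pairs with the B1-8 heavy chain in NP-binding receptors, rose by 1.92 in KOTN (SE 0.14, adjusted p = 2.7e-07) and by 2.95 in KOTP (SE 0.15, adjusted p = 3.4e-10) against heterozygous cells. Igkc, the kappa light chain constant gene, fell by 3.12 in KOTN (SE 0.29, adjusted p = 2.5e-06) and fell by 2.57 in KOTP (SE 0.29, adjusted p = 1.3e-05). Of the 8 genes of secretory heavy chain processing, 7 were tested, with 0 passing between KOTP and KOTN in either edgeR fit. At an unadjusted p under 0.05 there were 0 over all 16 libraries and 2 over the homozygous ones. The number of all genes under that p is not given for the homozygous libraries, so the 2 cannot be set against it. Over the homozygous libraries DESeq2 called 0 of those with a value and voom 1, where voom called 353 of 9974 genes. Ell2, an elongation factor that favours the secreted heavy chain form, fell by 2.01 in KOTN (SE 0.44, adjusted p = 0.0068) and fell by 1.78 in KOTP (SE 0.44, adjusted p = 0.0115) against heterozygous cells. In all, 1 of the 7 was lower in KOTN and 3 in KOTP, with 0 higher, where 4.88% and 5.22% of all genes were lower. Irf4 (-1.67, SE 0.44, adjusted p = 0.0176) and Cstf2 (-1.14, SE 0.35, adjusted p = 0.0465) were the others in KOTP.

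For each member, the 3 genes with the most similar profile over the 16 libraries were found among 7040 genes, by the root mean square difference of centred log2 CPM. For Ighg2b they were Gpr183 (0.45), a receptor that positions activated B cells, Gimap7 (0.48) and Iglc1 (0.49), where the spread of Ighg2b about its own mean was 1.30. Gpr183 was at 79.9 to 200.3 CPM in heterozygous and at 385 to 439.7 CPM in homozygous libraries. For Ighg3 they were Nucb2 (0.44), Trex1 (0.46) and Cept1 (0.47), against a spread of 0.82, and for Ighg1 Myo1f (0.64), Fkbp11 (0.86) and Cln3 (0.86), against a spread of 1.92. The nearest genes to Ighg2c (Lacc1, 1.29), Ighe (Dffb, 1.59) and Igha (Hira, 0.90) were farther away, against spreads of 2.12, 2.70 and 1.91. These libraries share their genotype tables, so the values describe the profiles only.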

How the data were processed

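The submitters' processing notes name Trim Galore, STAR 2.2.0, featureCounts and the build mm10. Strand and multiple mapping settings are not given in the sources used here. For each genotype the authors deposited 1 table of raw read counts per gene (CDS, by its name). Beside the counts the authors deposited normalized scores, which are counts over 1 mapped-read divisor per library. Those scores entered no test, and the divisor was used only as an alternative scaling. Tables were joined on gene symbols. Each table had 22680 entries, of which 4 with duplicated names were left out.

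CPM are counts-per-million of the library total. Tests used edgeR 4.0.16 (R 4.3.3, limma 3.58.1): TMM scaling, filterByExpr by group, and the robust quasi-likelihood test on 16 libraries with 12 residual degrees of freedom. It was adjusted by Benjamini-Hochberg over 10687 genes and called under 0.05. The test was tested on simulated data. With 1 spread for all libraries it kept false calls near the threshold. With each table's own spread, the fit of 16 libraries made many false calls for HetTP against HetTN, where its p-values are too small, and somewhat more than the threshold allows between genotypes. The fit of the compared libraries alone kept them near the threshold for HetTP against HetTN and made fewer between genotypes. The simulated spread followed the mean level of a gene rather than its own spread. No single outlying library was simulated, such as that of Ighg2c in HetTN. The simulated result for KOTP against KOTN is not given here. Shares were compared with two-sided exact permutation tests (SciPy 1.17.1, 70 splits). Intervals are 95% Wilson intervals, and the limit for a count of 0 is 3 counts. Reads carried no molecular identifiers, so both cover counting error only. Positions and sequences come from GENCODE M21.

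The alternatives were other scalings and filters, DESeq2 1.42.0, limma voom with sample weights, a replicate block, the compared libraries alone, other share denominators and each library left out. Counts of DESeq2 calls cover only genes to which it gave an adjusted p. The mapped-read divisor and the other tools on the compared libraries alone were added after the data were seen. The members and lists were chosen with earlier results of these data known. Named were all members, Zfp318 and the 3 most similar genes above a mean log2 CPM of 3. List genes were named from the up to 4 per comparison with the smallest p past the threshold. Not all of these are printed, so the named genes do not stand for their lists. Sdc1, Tnfrsf17 and Cd4 were named after their values were seen.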

Additional observations from a re-analysis of the deposited data

Results flagged for a closer look

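In groups of 4 libraries, a library was singled out when its gap to the nearest other exceeded 0.829 of the group's range (Dixon's criterion, which chance meets in about 1 of 20 groups). Of 52 groups examined, 8 met it, all heterozygous. In HetTN these were Ighg3 at 329 CPM in replicate 4, and in replicate 3 Ighg2c at 4698 CPM, the Ighg2c share at 88.5% and the switched part of heavy chain constant counts at 34.2%. In HetTP they were Ighg1 at 333 CPM and Ighe at 142 CPM in replicate 1, the Igha share at 3.33% in replicate 4, and the switched part at 3.60% in replicate 2, which was the lowest.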

How the results depend on the processing

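Under another scaling, filter, tool or set of libraries, 332 log2 differences of members kept their direction and their side of the threshold, 25 turned, 20 newly passed and 6 no longer did. Of the share differences 69 kept both, 10 turned, 4 newly separated the groups and 1 no longer did. Those that turned, and the counts of members called or of shares without overlap that moved, follow, and the cause was not tested where none is named.

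HetTP against HetTN. Ighg2b turned to 0.0064 with library totals and 0.063 with the mapped-read divisor, Igha to 0.975 with voom and 0.982 with voom on the compared libraries alone. Leaving Ighg2b out of the sum turned the Ighg2c share to 9.31 points. KOTP against KOTN. Members called went from 0 to 2 on the compared libraries alone with edgeR, DESeq2 and voom, and shares without overlap from 3 to 1 with Ighg2b and Ighg2c summed.

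KOTP against HetTP. Members called went from 2 to 1 with library totals, with totals less immunoglobulin genes and without a filter, and to 4 with voom on the compared libraries. Ighe turned to 2.04 and 2.15 with voom on all and on the compared libraries. With the divisor Ighg3 was -0.89, Ighg2c -0.48 and Igha -1.27. Ighg3 and Ighe (-3.20, edgeR adjusted p = 0.0473) passed as lower there, and Ighg2b did not pass. With that divisor 7999 of 10552 genes passed, 84 of them higher. With Ighm and Ighd in the denominator 4 shares did not overlap, and differences became 3.55 (Ighg3), 5.76 (Ighg2c), 0.0479 (Ighe) and 0.213 points (Igha). Without Ighg2b in the sum 1 did not overlap.

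KOTN against HetTN. Members called went from 1 to 2 with voom and the compared libraries alone (edgeR, voom, and DESeq2 without a value for Ighg2c). These were Ighg2b and Ighg1, both higher. With the divisor 2 passed as well, but these were Ighg3 and Igha (-3.27, edgeR adjusted p = 0.0174), both lower. Ighg2b did not pass there, and 7337 of 10552 genes did, 154 of them higher. Ighg2c turned to 2.55 and 2.52 and Igha to 1.25 and 1.23 with voom on all and on the compared libraries. With the divisor Ighg3 was -1.34 and Ighg1 -0.18. With Ighm and Ighd in the denominator 4 shares did not overlap, and differences became 3.70 (Ighg3), 6.64 (Ighg1) and 3.48 points (Ighg2c). Without Ighg2b in the sum those of Ighg1 and Ighg2c were 2.24 and 18 points. In the interaction, voom gave -0.66 for Ighg2c and -0.26 for Igha, and the divisor -0.046 for Ighg2b.

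Whether replicate numbers pair the libraries could not be decided from so few of them. Deviations of same-numbered libraries correlated at -0.009 to 0.087 within genotypes, and those of differently numbered libraries at -0.093 to 0.066. In each genotype the highest value was that of a same-numbered pair (0.087 heterozygous, 0.067 homozygous). With the number as a replicate block, members called were 1 for KOTP against HetTP, and on the compared libraries alone 1 for KOTP against KOTN and 2 for KOTN against HetTN. The block turned Ighg2c to 1.29 and 1.32 (alone) in HetTP against HetTN, to 1.40 and 3.49 (alone) in KOTN against HetTN and to -2.02 in the interaction. On the compared libraries it turned Igha to 0.30 in KOTN against HetTN and Ighe to 1.14 in KOTP against HetTP.

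With 1 library left out, members called ranged from 0 to 1 (HetTP against HetTN), 0 to 2 (KOTP against KOTN), 1 to 3 (KOTP against HetTP) and 1 to 3 (KOTN against HetTN). Shares without overlap ranged from 0 to 1, 3 to 3, 0 to 2 and 1 to 3. In HetTP against HetTN, Ighg2b ranged from -0.40 to 0.17, Ighg2c from -4.0 to 2.13 and its share from -11.5 to 17.3 points. In KOTP against KOTN, Ighe ranged from -0.071 to 0.38, Ighg3 from -0.38 to 0.12 and its share from -2.10 to 0.604 points. In KOTP against HetTP, Ighe ranged from -1.47 to 1.74. In KOTN against HetTN, Ighg2c ranged from -1.30 to 4.55, Igha from -1.88 to 0.073, and the shares of Ighg1 and Ighg2c from -7.60 to 1.83 and from -9.99 to 18.8 points. In the interaction, Ighg2b ranged from -0.067 to 0.50 and Ighg2c from -2.87 to 3.26.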

Other observations

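Antigen receptor genes that stood apart in single libraries were listed after their values were seen, as genes of at least 100 CPM in 1 library and at least 20 times the highest other library of its group. There were 10, in 5 heterozygous libraries, and 0 in homozygous libraries. Beside Ighg2c, HetTN replicate 3 held the heavy chain variable segment Ighv13-2 at 671 CPM, which was at 0 in 12 libraries and at most 8.03 CPM in the others. HetTP replicate 1, highest of its group in Ighe and Ighg1, held Ighv11-2 at 826 CPM and the kappa variable segment Igkv14-111 at 2562 CPM, against at most 45.7 and 142 CPM elsewhere. It also held Igkv4-57 at 169 CPM, against at most 150.2 CPM elsewhere. HetTN replicate 1 held Ighv7-3 at 1685 CPM and Igkv8-34 at 542 CPM, and HetTN replicate 2 held Ighv1-42 at 360.4 CPM and Igkv8-18 at 3250.5 CPM. HetTP replicate 2 held Igkv1-99 at 107 CPM.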
